A study of Drosophila melanogaster with 3 samples.

Results

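Of 4900 optimal peaks of the GAGA factor in Drosophila melanogaster embryos, 532 lay in intergenic sequence away from start sites. They were chosen by position alone: the summit was over 500 bp from every annotated transcription start site (TSS) and inside no annotated gene, with transposable elements not counted as genes. They made up 10.9% of the optimal peaks (exact 95% binomial interval 9.999 to 11.8). The GAGA factor, product of Trithorax-like (Trl), was mapped by ChIP-seq in 1 group of 3 biological replicates. The embryos, of both sexes and 0 to 24 h old, came from a MiMIC insertion line in which an eGFP exon sits in an intron of Trl, and anti-GFP antibody was used to pull down the fusion. All replicates share this line, no untagged or second condition was compared, and whole embryos mix all cell types and stages. A peak can therefore stand for a site bound in few cells or in many, and these cannot be told apart. The optimal list is the authors' IDR list, which rests on agreement between replicates, and it equals the 4900 strongest of 30000 pooled candidates. Each replicate also has a list of 30000 candidates, and the sequencing depth is unknown.

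The GAGA factor is a zinc finger protein with a BTB domain that binds GA-rich DNA, opens chromatin at promoters and enhancers, and is found at Polycomb response elements and at some insulators. Intergenic sites far from start sites are where many enhancers, Polycomb response elements and boundary elements of the fly genome lie. Its core site is GAGAG on either strand, so CTCTC on the strand that is read is the same site.

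The sequences below reach 100 bp to either side of the summit, on the plus strand of the RefSeq Release 6 reference, which is dm6. The first 6 belong to strong peaks, at ranks 17, 50, 71, 85, 87 and 112 of the optimal list. They are shown for their high rank but are not the 6 strongest intergenic peaks. Those at ranks 16, 41 and 53 lay on a chromosome arm from which no sequence is printed here. Capitals mark GAGAG and the word CACTG, which is described further on, on either strand. A GAGAG match stood in 1 of these 6 windows. Of the peaks left out, those at ranks 16 and 53 had a match and that at rank 41 had none, so this count depends on the choice of windows.
mtSSB–tara, 3R:16222387-16222587: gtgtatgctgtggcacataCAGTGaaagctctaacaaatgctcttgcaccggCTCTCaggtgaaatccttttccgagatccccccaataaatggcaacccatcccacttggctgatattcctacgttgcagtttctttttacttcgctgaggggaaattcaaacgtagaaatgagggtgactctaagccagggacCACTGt
C15–sp3, 3R:21520274-21520474: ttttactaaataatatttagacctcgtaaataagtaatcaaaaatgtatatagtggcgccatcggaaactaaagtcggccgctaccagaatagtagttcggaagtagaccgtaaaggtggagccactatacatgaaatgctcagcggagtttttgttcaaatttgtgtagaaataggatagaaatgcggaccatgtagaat
CG3149–AdamTS-B, X:5696413-5696613: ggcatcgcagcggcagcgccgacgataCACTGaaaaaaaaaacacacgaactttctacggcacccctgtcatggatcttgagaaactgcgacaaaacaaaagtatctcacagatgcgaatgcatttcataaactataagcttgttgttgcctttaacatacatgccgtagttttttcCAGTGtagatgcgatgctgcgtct
RasGAP1–CG10809, 3L:9855862-9856062: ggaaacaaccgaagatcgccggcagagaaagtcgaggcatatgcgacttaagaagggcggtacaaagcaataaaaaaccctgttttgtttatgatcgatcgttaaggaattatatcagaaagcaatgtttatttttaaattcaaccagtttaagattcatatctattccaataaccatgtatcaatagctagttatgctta
COX7AL2–CG31668, 2L:2202313-2202513: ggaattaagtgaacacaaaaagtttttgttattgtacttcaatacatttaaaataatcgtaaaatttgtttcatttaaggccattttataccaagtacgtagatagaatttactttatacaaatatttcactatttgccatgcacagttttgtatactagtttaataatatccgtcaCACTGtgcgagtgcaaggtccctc
CG9452–Cpr76Ba, 3L:19516629-19516829: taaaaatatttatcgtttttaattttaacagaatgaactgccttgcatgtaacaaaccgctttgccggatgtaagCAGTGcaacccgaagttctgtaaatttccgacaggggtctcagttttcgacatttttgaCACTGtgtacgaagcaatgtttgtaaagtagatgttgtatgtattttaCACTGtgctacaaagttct
The next 3 are shown for their many GAGAG matches, 18, 13 and 12 in capitals, overlapping matches included; 1 peak not printed here holds 19. They ranked 4236, 2986 and 1178 of 4900 by signal.
disco-r–disco, X:16150658-16150858: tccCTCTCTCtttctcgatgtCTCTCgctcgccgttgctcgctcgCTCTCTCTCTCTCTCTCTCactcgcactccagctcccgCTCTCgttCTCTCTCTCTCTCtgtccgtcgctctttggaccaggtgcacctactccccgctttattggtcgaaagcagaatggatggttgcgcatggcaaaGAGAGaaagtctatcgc
klu–Fad2, 3L:11010349-11010549: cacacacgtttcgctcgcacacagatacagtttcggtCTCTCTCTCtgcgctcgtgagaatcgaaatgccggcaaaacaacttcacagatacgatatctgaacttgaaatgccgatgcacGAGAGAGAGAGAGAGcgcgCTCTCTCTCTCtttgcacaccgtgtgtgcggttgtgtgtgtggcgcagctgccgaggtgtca
comm–CG6244, 3L:15729352-15729552: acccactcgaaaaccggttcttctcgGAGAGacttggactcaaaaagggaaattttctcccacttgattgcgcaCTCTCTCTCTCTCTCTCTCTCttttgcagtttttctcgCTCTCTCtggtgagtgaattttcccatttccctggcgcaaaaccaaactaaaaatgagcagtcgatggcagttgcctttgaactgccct
Both windows that follow are the strongest with a DRE (TATCGATA in capitals), the site of the promoter factor DREF.
CG3168–RpL17, X:6741267-6741467: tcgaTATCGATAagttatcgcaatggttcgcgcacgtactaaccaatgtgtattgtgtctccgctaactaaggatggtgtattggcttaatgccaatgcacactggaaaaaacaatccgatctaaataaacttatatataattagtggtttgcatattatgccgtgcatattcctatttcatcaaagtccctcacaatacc
myo–ey, 4:696766-696966: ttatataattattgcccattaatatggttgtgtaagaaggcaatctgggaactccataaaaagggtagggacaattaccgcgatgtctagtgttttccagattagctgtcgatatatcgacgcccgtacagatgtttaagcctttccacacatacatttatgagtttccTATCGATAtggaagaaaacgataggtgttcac
The last 3 were picked after the word counts had been seen. The Sid–snu window holds the pattern AGNTGGCGC, written after the core of the CTCF site, and the slp1–slp2 and noc–CG33648 windows hold CACTGAGA, each in capitals.
Sid–snu, 3R:28672301-28672501: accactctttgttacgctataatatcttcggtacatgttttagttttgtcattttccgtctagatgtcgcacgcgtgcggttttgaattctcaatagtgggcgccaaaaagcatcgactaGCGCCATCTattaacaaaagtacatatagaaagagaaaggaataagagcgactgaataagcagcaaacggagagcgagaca
slp1–slp2, 2L:3832431-3832631: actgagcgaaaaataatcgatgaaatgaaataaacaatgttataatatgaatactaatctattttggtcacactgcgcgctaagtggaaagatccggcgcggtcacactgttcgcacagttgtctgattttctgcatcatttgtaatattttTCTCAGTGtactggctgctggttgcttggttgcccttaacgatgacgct
noc–CG33648, 2L:14502683-14502883: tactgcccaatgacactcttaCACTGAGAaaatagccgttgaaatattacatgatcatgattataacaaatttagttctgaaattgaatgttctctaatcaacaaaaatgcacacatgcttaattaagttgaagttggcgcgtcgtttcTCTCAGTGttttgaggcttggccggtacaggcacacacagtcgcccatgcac

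The 20 strongest intergenic peaks lay beside genes of many kinds. Signal is the authors' own value on a scale that is not stated, so only ranks within a list were used. The strongest covered 2R:13035138-13035533 between Su(z)2, a Polycomb group gene, and CG13323, and ranked 16 in the optimal list and 14, 22 and 15 in replicates 1, 2 and 3. It lay 27441 bp from Su(z)2 and 9343 bp from CG13323. The next covered 3R:16222306-16222673, 3164 bp before tara, a gene of the trithorax group class, and ranked 17 in the optimal list and 19, 20 and 18 in the replicates. All 3 replicates thus placed both peaks within their first 22. A second peak lay 1132 bp before tara and ranked 178, 95 and 76. Another peak beside a Polycomb group gene, between CG13321 (2509 bp away) and Psc (7776 bp away), ranked 143, 114 and 130.

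Homeobox genes flanked others of the strongest peaks. The peak between C15 and sp3 ranked 42, 47 and 68 in replicates 1, 2 and 3, and that between CG14762 and Optix, which encodes a homeobox protein of eye development, ranked 51, 41 and 58. Both lay closer to the other gene. The summits were 7560 bp from C15 and 554 bp from sp3, and 16875 bp from Optix and 653 bp from CG14762. The peak between Hr51, a nuclear receptor gene, and unc-5, which encodes a Netrin receptor, ranked 109, 96 and 163. That between RFeSP and chinmo, a BTB zinc finger gene, ranked 205, 69 and 123, the widest spread of ranks among the 20 strongest. A peak on chromosome 4 between dati and lgs, which encodes a cofactor of Wnt signalling, ranked 114, 132 and 192.

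Some strong peaks lay beside genes of general cell function. The peak between blw, which encodes an ATP synthase subunit, and CycB, the cyclin B gene, ranked 47, 30 and 46 and sat in a gap of 1340 bp. The peaks at CG3149–AdamTS-B, RasGAP1–CG10809 and COX7AL2–CG31668 ranked 71, 85 and 87 in the optimal list. Those at CG9452–Cpr76Ba, CG43131–RabGGTa and Atg13–stck ranked 112, 113 and 132. The remaining 4 of the 20 strongest lay at CG13970–CG10651, dpr17–CG4702, noc–CG33648 and CG6739–Slob, with ranks of 134, 142, 145 and 159. The 20 strongest stood between ranks 14 and 205 in every replicate. For 7 of the 20 the nearest start site was that of a noncoding RNA.

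**Figure D1:**
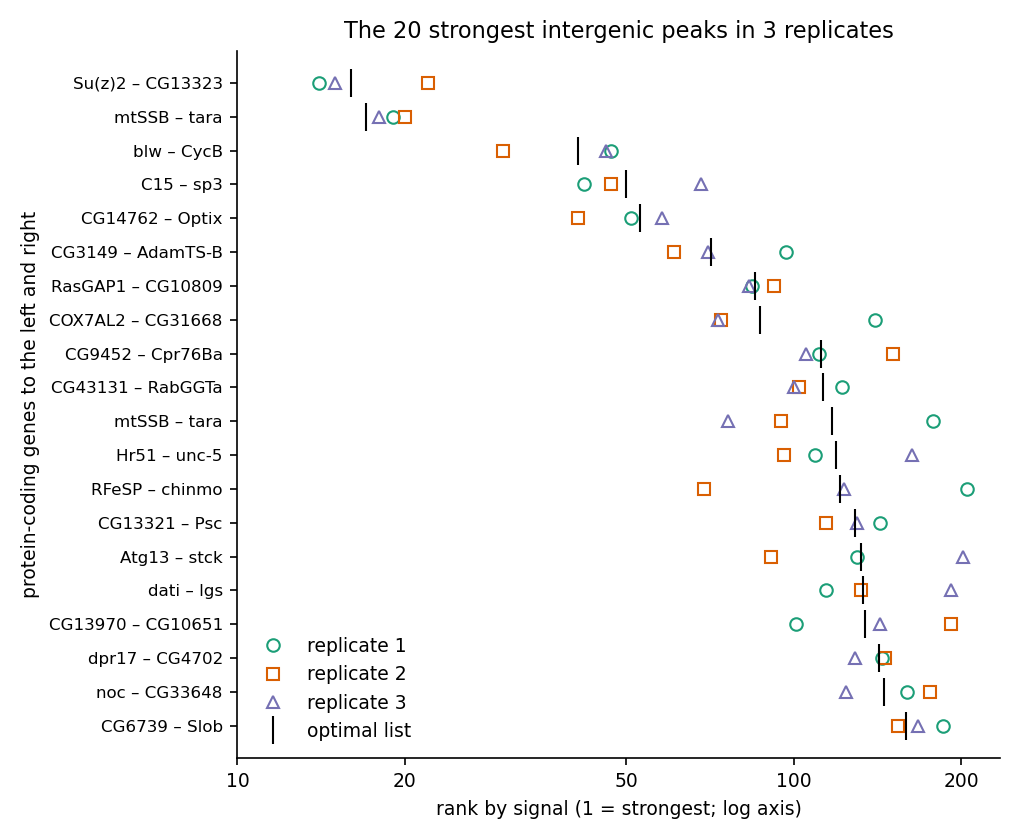
Rank by signal (log axis) of the 20 strongest intergenic peaks in the optimal list and in each of 3 replicates, by the protein-coding genes to the left and right. The replicate ranks run from 14 to 205, and the RFeSP–chinmo peak has the widest spread, from 69 to 205.

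As a set, the intergenic peaks were spread over the whole range of signal. Their ranks ran from 16 to 4864 of 4900 with a median of 2655.5, and 248 of 532 (46.6%) were among the stronger 2450 optimal peaks. The same share was 47.5% of 1455 intronic peaks over 500 bp from a TSS and 52.5% of 2785 promoter peaks, whose summits lay within 500 bp of a TSS. The difference from promoter peaks passed Fisher's exact test (adjusted p = 0.0208 over 3 comparisons), and that from intronic peaks did not (adjusted p = 0.761). In the top 4900 peaks of each replicate taken alone, the share was 45.9% ± 0.548 (SD, n = 3) for intergenic, 47.5% ± 0.814 for intronic and 52.6% ± 0.490 for promoter peaks. Peaks are not independent replicates, and every p-value here that counts them is therefore too small. The values by replicate give the biological spread, although the replicates share most peaks and are read against the same annotation. With 3 replicates no exact test across them can reach 0.05.

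Pooled candidates in intergenic sequence were among the optimal peaks less often than those in introns. Of all 30000 candidates, 16.3% are optimal peaks. The share was 532 of 4858 (11.0%) for intergenic candidates away from start sites, 1455 of 10453 (13.9%) for intronic and 28.3% for promoter candidates, and 2.64% for exonic ones. The intergenic and intronic shares differed (Fisher's exact test, adjusted p = 8.04e-07). Being among the optimal peaks is also part of the rule that set the 532, and this comparison has no value by replicate. The top 4900 of replicates 1, 2 and 3 held 531, 537 and 539 intergenic peaks, or 10.9% ± 0.085 (SD, n = 3).

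The replicates mostly placed the same intergenic peaks high. The median percentile in the replicate lists of 30000 was 91.1 in replicate 1, 91.1 in replicate 2 and 91.5 in replicate 3. A peak of all 3 lists overlapped 530 of the 532, and 350 (65.8%) were met by a peak in the top 4900 of each replicate, against 65.6% of intronic and 70.5% of promoter peaks. The summits moved little, with median shifts of 15, 17 and 14 bp in replicates 1, 2 and 3. The optimal list was made from these replicates, and the overlap is therefore a description. The least alike by overlap was the peak between CG9743 and RpS7 (3R:30203480-30203588). It was met by peaks ranked 96 in replicate 1 and 177 in replicate 3, and by none in replicate 2. The summits of those replicate peaks lay 124 and 205 bp from its own, and another optimal summit lay 209 bp away. Their ranks may therefore be those of the neighbouring peak, which was not tested. The peak between Mnt and Rala ranked 4180 and 3605 in replicates 1 and 2 and was met by none in replicate 3.

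The distance to the nearest TSS ran from 509 to 36542 bp, with a median of 2840 bp. More than 5 kb separated 153 peaks (28.8%) from any start site, and more than 10 kb separated 59 (11.1%). Per length of sequence that the rule admits, 36.3 Mb in all, the peaks were densest near start sites. Between 500 and 1000 bp there were 99 peaks, or 35.2 per Mb; between 2000 and 5000 bp there were 169, or 18.8 per Mb; beyond 10000 bp there were 59, or 4.64 per Mb. The density fell at each step of distance. The nearest start site was that of a protein-coding gene for 366 peaks, a noncoding RNA for 152 and a tRNA for 12, and 350 peaks (65.8%, exact 95% binomial interval 61.6 to 69.8) lay upstream of it. The rule itself favours upstream positions, since it leaves out summits inside genes. The upstream share of the admitted sequence was not counted, so no preference can be read from this value.

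**Figure D2:**
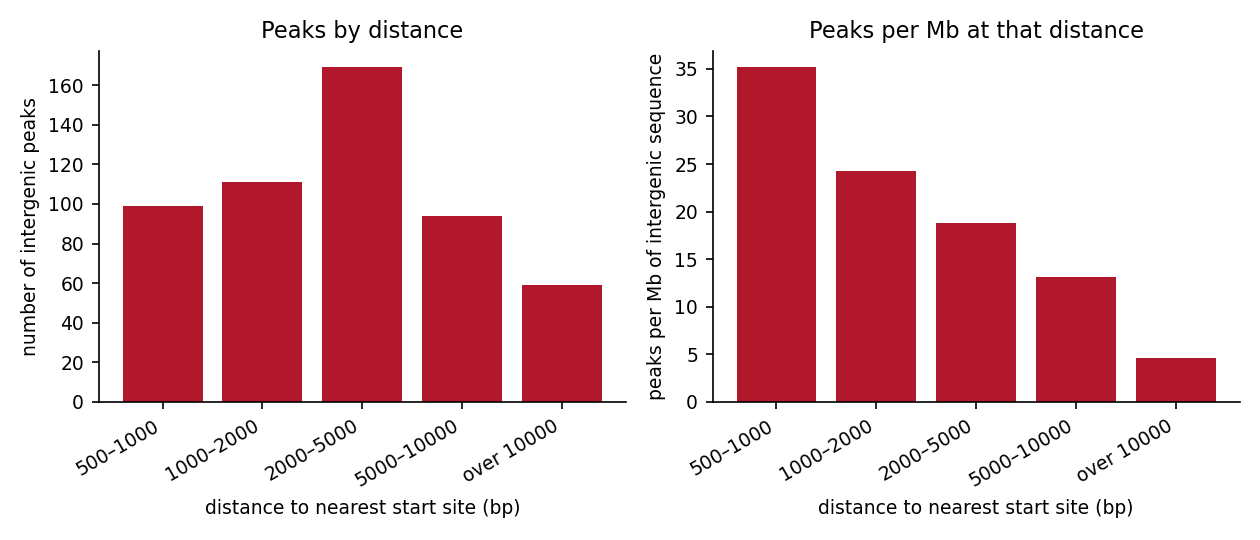
Left, number of intergenic peaks by distance of the summit from the nearest start site in bp. Right, the same peaks per Mb of intergenic sequence at that distance. Counts are highest at 2000 to 5000 bp (169 peaks), whereas the density falls from 35.2 per Mb at 500 to 1000 bp to 4.64 per Mb beyond 10000 bp.

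At the edge of the rule, 35 peaks lay 501 to 600 bp from a TSS, with a median rank of 2106 and GAGAG in 28.6%. Just outside it, 36 intergenic peaks lay 401 to 500 bp away, with a median rank of 2398.5 and GAGAG in 41.7%. These values describe the edge and were not tested.

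Gaps between divergent protein-coding genes, which hold start sites at both ends, had 180 peaks, or 21.2 per Mb. Gaps between tandem genes had 254, or 14.2 per Mb, and gaps between convergent genes had 98, or 12.3 per Mb. By chromosome, the density was 28.6 per Mb on chromosome 4, from 7 peaks in 0.245 Mb, then 19.7 on 2L, 15.6 on 3L, 13.5 on 3R, 11.95 on 2R and 11.6 on X. No test was run on these densities, which have no replicate. Annotated transposable elements made up 10.8% of the admitted sequence and held 2 of the 532 summits; reads in repeats are often dropped in mapping, and the authors' handling of them is not given in the sources used here.

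Intergenic peaks often shared a gap. The 532 peaks fell into 376 gaps between neighbouring protein-coding genes, and 249 peaks (46.8%) shared their gap with at least 1 other. The median length was 9194 bp for the gaps with 1 peak and 25829 bp for those with more. A total of 12 gaps held 4 or more peaks, 64 in all.

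The gaps with 8 peaks were RFeSP–chinmo and hng3–CG13898. In the RFeSP–chinmo gap of 37.1 kb on 2L the peaks spanned 32847 bp, and 4 of them ranked between 121 and 793. The strongest, 24.6 kb from RFeSP, lay at percentiles 99.3, 99.8 and 99.6 in replicates 1, 2 and 3. The weakest, 15.6 kb from RFeSP, lay at 91.0, 68.9 and 84.5. On this percentile scale, which leaves little room near its top, the replicates lay closer together for the strongest peak of this gap than for the weakest. By rank the strongest stood at 205, 69 and 123. In the hng3–CG13898 gap of 47.9 kb the strongest peak ranked 664 and the weakest 4753.

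The NijA–CG43245 gap on 3L, 75.05 kb long, held 7 peaks, all in the right part of the gap, between 38.5 and 72.8 kb from NijA, which encodes the adhesion protein Ninjurin A. It also held 3 of the 5 peaks farthest from any TSS, at 36542, 34695 and 31885 bp. The nearest of these to a start site, ranked 454, stood at 322, 1022 and 427 in replicates 1, 2 and 3. The other two of the farthest lay between the cell death genes grim and rpr, 30518 bp from a TSS (ranks 12412, 4671 and 3476), and between vvl, a POU homeobox gene, and Prat2, at 26249 bp (ranks 5576, 2775 and 2001). Both were low in replicate 1 relative to replicate 3.

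The 4 peaks between lola and psq, which both encode BTB proteins and of which Pipsqueak also binds GA-rich DNA, each had GAGAG, with 1, 19, 7 and 9 matches from left to right. The count of 19 was the highest of all 532 peaks. Their ranks were 1227, 2915, 4783 and 3397, so the peak with the most matches was not the strongest. The CG44362–CG7560 gap had 6 peaks, and the gaps CG6739–Slob, CG7320–CheA75a and CG6168–CG6163 had 5 each. The gaps with 4 peaks besides lola–psq were CG4218–CG3473, robo2–CG43401, drm–CG43815 and dnc–Myc. Robo2 is a receptor for the guidance cue Slit, drm encodes a zinc finger protein of the odd-skipped family, dnc a cAMP phosphodiesterase and Myc the transcription factor. GAGAG was found in none of the 6 peaks of CG44362–CG7560, nor in the 5 of CG7320–CheA75a or the 5 of CG6168–CG6163, although the strongest of these ranked 588, 353 and 385.

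**Figure D3:**
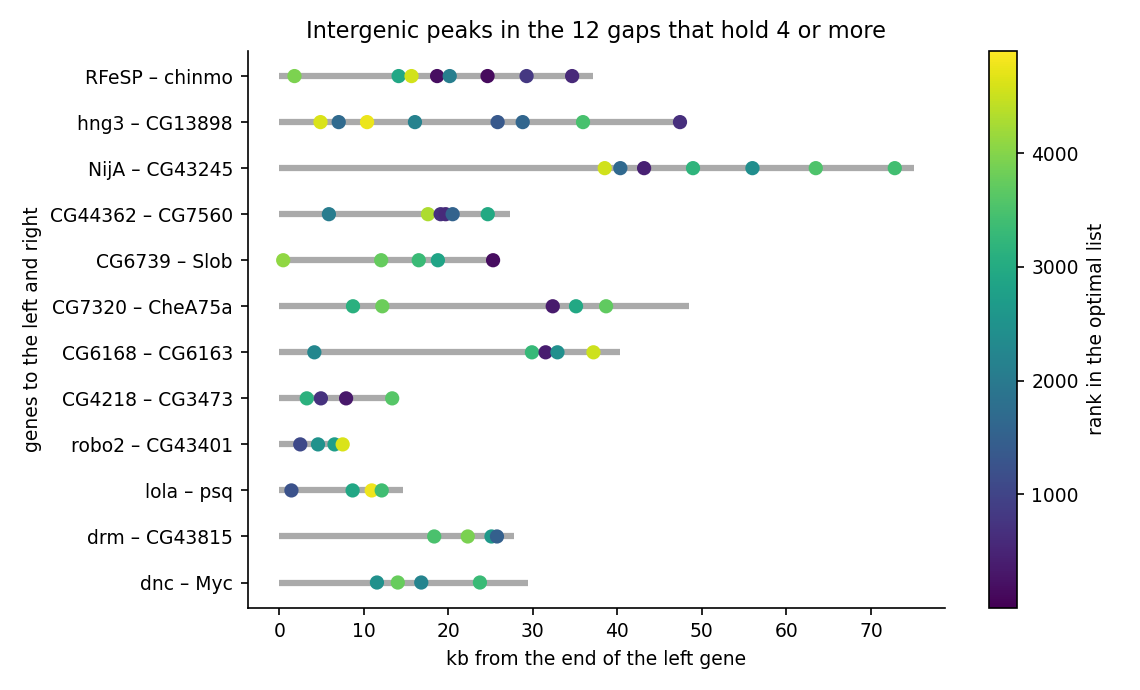
Position of the 64 intergenic peaks in the 12 gaps that hold 4 or more, in kb from the end of the left gene, with the gap drawn as a grey line and the rank in the optimal list as colour (1 is strongest). The 7 peaks of the NijA–CG43245 gap all lie beyond 38.5 kb, and most gaps mix strong and weak peaks.

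Genes beside intergenic peaks were counted in 22 lists, which were drawn up with earlier results of these data known. A gene counts as beside a peak when it is the nearest protein-coding gene on either side, which does not show that it is regulated from there. Of all 13945 protein-coding genes, 695 (4.98%) were beside a peak. This share grew with the admitted sequence a gene borders, from 2.36% for genes with some but under 2000 bp to 28.5% for those with 20000 to 50000 bp and 34.6% beyond that. The median of admitted sequence was 0 bp over all genes and ran, for example, from 0 bp for the Polycomb group list to 26532 bp for the pair-rule list. Its part in the shares that follow was not tested. Counts are of listed genes found in the annotation.

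Among homeobox genes outside the segmentation hierarchy, 19 of 44 (43.2%) were beside a peak, with a median of 18492 bp; after C15 and Optix the strongest peaks were beside zfh2 (rank 194) and vvl (rank 1138). Among pair-rule genes 5 of 9 were, with a median of 26532 bp. These were slp2 (rank 174), hry (1578), the hairy gene, with 3 peaks, odd (3068), opa (3838) and ftz. Of 13 gap and maternal genes 5 were, namely slp1, ems, oc, kni and bcd, with a median of 18291 bp. These 3 shares are above that of all genes. Counted per Mb of bordering sequence, each peak once for each gene it borders, the 3 lists had 19.4, 45.5 and 28.9 peaks in this order. Over all genes the value was 15.1.

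Among signalling genes, 7 of 21 segment polarity and Wnt or Hedgehog genes were beside a peak, the strongest at mid (rank 841), ptc (938), which encodes the Hedgehog receptor, and H15 (1108). Of 17 EGFR and FGF genes 5 were, namely sty (rank 610), an inhibitor of the pathway, aop (1212), the ligand gene vn (1342), and the FGF genes pyr and ths, which share peaks. Of 29 dorsoventral and Dpp pathway genes 5 were, led by the T-box genes Doc2 (492) and Doc1 (1163), with sog and Dr next. Of 15 Notch pathway genes 4 were, the strongest at E(spl)mbeta-HLH (rank 750), Ser (2040) and fng (3464). Of 28 proneural and neural fate genes 9 were, with Sox21a and Sox21b (rank 545, the same peak), SoxN (754) and toy (885) first.

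Of 8 Hox genes, abd-A (rank 213) and Antp (rank 4083) were beside a peak, and the list had 13.5 peaks per Mb of bordering sequence. Of 23 Polycomb group genes 5 were: Su(z)2, Psc, jing, and ph-d and ph-p, which share 1 peak at rank 891. Of 25 trithorax group and GAGA factor related genes 5 were: chinmo with 8 peaks, lola and psq, which share 4, and ttk and bab2 with 1 each. The list does not hold tara, which had 3 peaks on the mtSSB side and 1 on the other. Counted per Mb of bordering sequence, each peak once for each gene it borders, this list had 122 peaks per Mb, against 15.1 over all genes, and 8 of its 18 were those of chinmo.

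Of 41 axon guidance and cell adhesion genes 9 were beside a peak, led by unc-5 (rank 119), robo2 (1082), shg (1624), the E-cadherin gene, and 18w (1978). Of 25 nuclear receptor and ecdysone genes 4 were: Hr51 (119), kni (2109), knrl (3509) and Hr38 (3643). Of 24 muscle and mesoderm genes 3 were (bin, lmd and Act87E), and of 14 GATA factor and hemocyte genes only grn (4663). Of 27 ion channel genes 5 were, the strongest at nAChRalpha7 (1324), GluRIIB (3438) and nAChRalpha5 (3446). Inx2 was the 1 innexin gene of 8 (rank 460), and mod(mdg4) the 1 insulator gene of 18 (rank 3037).

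The remaining lists had shares below that of all genes, also among genes that border any admitted sequence. There the share was 10.3% over all genes and 6.76% for odorant and gustatory receptor genes. It was 3.88% for cuticle and 8.70% for cytosolic ribosomal protein genes. Odorant and gustatory receptor genes had 5 of 119 (4.20%), the strongest at Gr89a (rank 967), cuticle protein genes 4 of 122 (3.28%), with Cpr76Ba first, and cytosolic ribosomal protein genes 4 of 92 (4.35%), with RpS7 first (rank 970, the peak not met in replicate 2). None of 17 listed heat shock genes was beside one; the list does not hold Hsp60B, which shares a gap with ds that has 1 peak (rank 1288). Heat shock promoters are known sites of the GAGA factor, but the position rule leaves promoters out, and the listed genes border a median of 0 bp of admitted sequence.

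The core site GAGAG lay within 100 bp of the summit in 157 of 532 intergenic peaks (29.5%, exact 95% binomial interval 25.7 to 33.6). The share was 32.6% of all optimal peaks. Windows centred 1000 bp to either side of the same summits and outside optimal peaks had GAGAG in 204 of 1022 (19.96%), which differed (Fisher's exact test, adjusted p = 0.00029 over 60 tests), and 20.7% of 180407 windows tiling the admitted sequence had it. In the top 4900 of replicates 1, 2 and 3 the share was 31.1%, 26.4% and 31.4%, against flanks of 20.2%, 20.7% and 20.4%. All 3 replicates were above their flanks, but in replicate 2 alone the difference of 5.72 points missed the threshold (Fisher's exact test, adjusted p = 0.0509).

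Intergenic peaks had GAGAG in a share that did not pass the test of difference from intronic peaks (31.1%, adjusted p = 0.769) or promoter peaks (33.4%, adjusted p = 0.247, both Fisher's exact test). The first gap was −1.62 points and changed sign among the stronger 2450 peaks (+1.32) and beyond 2000 bp from a TSS (+1.00). Within 250 bp of the summit it was −6.53 points and passed the threshold (Fisher's exact test, adjusted p = 0.0431), so the comparison depends on the window. The longer repeat GAGAGAG, which the factor CLAMP also binds, was in 40 intergenic peaks (7.52%), against 11.2% of all optimal peaks. It was more frequent than in flanks (3.33%, Fisher's exact test, adjusted p = 0.00253) and less frequent than in promoter peaks (12.9%, adjusted p = 0.00204).

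GAGAG was found at all levels of signal. In 4 groups of 133 peaks, from strongest to weakest, the share was 30.1%, 34.6%, 28.6% and 24.8%, with overlapping intervals, and 19.8%, 15.7%, 21.6% and 22.7% in their flanks. Only 3 of the 20 strongest peaks had it, those beside Su(z)2, tara and Optix. At least 2 matches were found in 50 peaks (9.40%) and in 52 of 1022 flanks (5.09%). Peaks over 10000 bp from a TSS had GAGAG in 40.7% (24 of 59, exact 95% binomial interval 28.1 to 54.3), the highest share of the 5 distance classes, with an interval that overlaps the others.

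A total of 20 motifs were compared, each against flanks, intronic and promoter peaks, with Benjamini-Hochberg adjustment over the 60 tests. Against flanks, the core site and the longer repeat were higher and 2 motifs were lower. CACTG is left out of this count, since it had been picked for its excess over flanks in the whole optimal list, which holds these peaks. The lower ones were AGGAG, the letters of GAGAG in another order, with 13.2% of intergenic peaks against 24.7% of flanks (Fisher's exact test, adjusted p = 8.43e-07) and 14.0% of all optimal peaks, and the Sp1/KLF site GGGCGG, with 3.57% against 8.51% (adjusted p = 0.00154) and 4.37% of all optimal peaks. Windows tiling the admitted sequence had AGGAG in 23.7% and GGGCGG in 6.11%. The peaks had a lower GC content than the flanks, with medians of 37.3% and 41.3%, and 16.6% of flanks lay within 500 bp of a TSS. The part of either in the differences from flanks was not tested. Against intronic peaks 1 motif differed, the GATA factor site AGATAA, with 11.5% of intergenic and 16.6% of intronic peaks (Fisher's exact test, adjusted p = 0.0258) and 12.1% of all optimal peaks.

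Several motifs known from promoters were less frequent than in promoter peaks. The classes are split by distance to a TSS, so these tests cannot tell the position of such motifs from the binding. The DRE was in 5 intergenic peaks (0.940%), in 7.76% of promoter peaks (Fisher's exact test, adjusted p = 2.98e-10) and in 4.55% of all optimal peaks. Flanks had it in 0.391% and windows tiling the admitted sequence in 0.441%, so it was not lower than there. In the top 4900 of each replicate promoter peaks were higher, with the DRE in 0.809% ± 0.598 of intergenic and 7.48% ± 0.231 of promoter peaks (SD, n = 3). The 5 lay beside RpL17, ey, Fmr1, jing, and between Sumo and snRNP-U1-70K. CGATA, the site of the boundary protein BEAF-32 and part of the DRE, was in 21.1% against 38.3% (Fisher's exact test, adjusted p = 1.10e-13) and 30.9% of all optimal peaks. Its share was 20.7% in flanks and 19.9% in admitted windows. Motif 1, GGTCACACT, the site of the promoter factor M1BP, was in 1 intergenic peak, that between slp1 and slp2, against 3.95% of promoter peaks (Fisher's exact test, adjusted p = 1.24e-06) and 2.35% of all optimal peaks. The slp1–slp2 window printed above holds 2 copies of it.

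**Figure D4:**
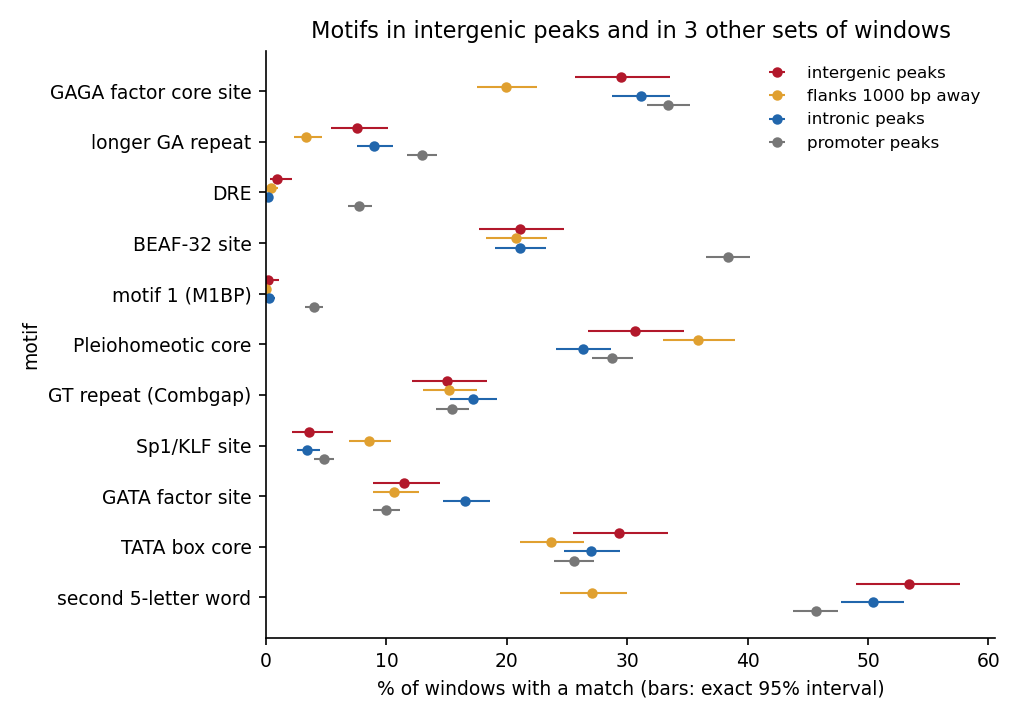
Share of windows with a match within 100 bp of their centre (points, with exact 95% binomial intervals) in 532 intergenic peaks, 1022 flanks, 1455 intronic peaks and 2785 promoter peaks, for 11 of the 20 motifs; the second 5-letter word is CACTG. Intergenic and intronic peaks lie close to each other for the DRE, the BEAF-32 site and motif 1, and promoter peaks stand apart.

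Of the 20 motifs, CACTG on either strand was in the most intergenic peaks. Because of how it was picked, its excess over flanks is only described and no p is given. It was within 100 bp of the summit in 284 peaks (53.4%), in 27.1% of flanks and 27.5% of windows tiling the admitted sequence, and in 48.1% of all optimal peaks. Replicates 1, 2 and 3 had it in 52.7%, 50.5% and 50.6% of their own intergenic peaks. Intronic peaks had it in 50.4% and promoter peaks in 45.7%, and the latter difference passed the test (Fisher's exact test, adjusted p = 0.00751). It was in 12 of the 20 strongest peaks. In 4 groups of 133 peaks, from strongest to weakest, its share was 51.9%, 54.1%, 56.4% and 51.1%, with overlapping intervals. Both words were in 84 peaks (15.8%), CACTG alone in 200 and GAGAG alone in 73, and 175 (32.9%) had neither, against 57.6% of flanks.

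A scan of all 2080 words of 6 letters, strands merged, found 97 more and 72 less frequent than in flanks (Fisher's exact test, adjusted over 2080). The first was AGTGTA, which 22.6% of peaks held against 7.34% of flanks (adjusted p = 2.29e-13 by Fisher's exact test), then ACACTG, in 20.3% and 6.16% (2.91e-13), and GAGAGA, in 18.4% and 6.26% (4.95e-10). Next came ACAGTG, with 17.1% and 5.97%, then AGAGAA, with 23.3% and 10.2%. The first 2 overlap as TACACTG, which was in 59 peaks (11.1%), 1.66% of flanks, 1.89% of admitted windows, 9.55% of intronic and 4.13% of promoter peaks, and 6.49% of all optimal peaks. CACTGAGA, which joins CACTG to a GA stretch, was in 42 peaks (7.89%), 0.685% of flanks, 5.29% of intronic and 1.69% of promoter peaks, and 3.49% of all optimal peaks. These longer words were chosen after the scan and were not tested.

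The longer words mostly read toward the summit. Matches of TACACTG within 100 bp were counted as inward when the word read toward the summit from its side, that is TACACTG to the left or CAGTGTA to the right. Of 65 matches in intergenic peaks 57 were inward (87.7%, exact 95% binomial interval 77.2 to 94.5). On the left there were 27 forward and 2 reverse matches, and on the right 6 forward and 30 reverse. In the top peaks of replicates 1, 2 and 3 the inward share was 78.3%, 91.0% and 80.7%, above an even split in each. It was 86.9% of 153 matches in intronic peaks and 72.4% of 123 in promoter peaks. For CACTGAGA it was 86.0% of 43 matches in intergenic peaks.

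A GA-rich word, GAGAGAAA, also taken from the scan, was inward in 74.5% of its matches in intergenic peaks (38 against 13 outward, exact 95% binomial interval 60.4 to 85.7) and in 78.6% in intronic peaks. In promoter peaks it was inward in 56.25% (46.6 to 65.6), an interval that holds an even split. In 4 groups of intergenic peaks, from strongest to weakest, 11 of 11, 13 of 17, 12 of 16 and 2 of 7 matches were inward. GAGAG was not mostly inward: 43.8% of 388 matches were inward in intergenic peaks (38.8 to 48.9, overlapping matches in repeats included), 48.9% in intronic and 48.7% in promoter peaks. CACTG as a whole had 59.8% of 396 inward in intergenic peaks, 54.6% in intronic and 47.6% in promoter peaks. It was also off the summit: 20.9% of intergenic peaks had it 50 to 100 bp to the left and 19.9% that far to the right, against 12.2% and 14.8% in the 50 bp on either side of the summit. Intronic peaks had 20.9% and 22.4% in the outer bins and 11.5% and 11.6% in the inner ones, whereas promoter peaks stayed between 13.5% and 15.7% in all 4. The CG3149–AdamTS-B window printed above has the pair, a forward CACTG near its left end and CAGTG near its right end. These counts are descriptions made after the words were seen, and what gives the words this direction was not tested.

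**Figure D5:**
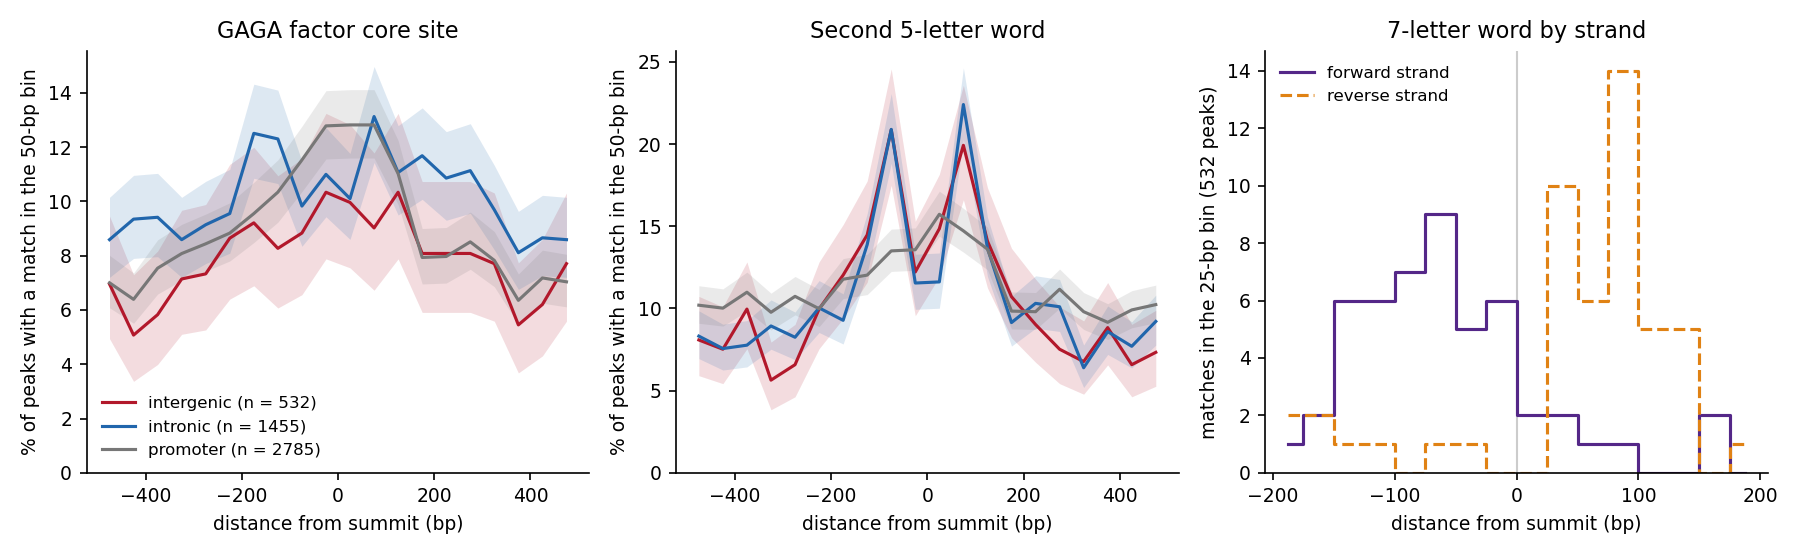
Left and middle, share of peaks with GAGAG and with CACTG in each 50-bp bin around the summit, for 532 intergenic, 1455 intronic and 2785 promoter peaks (bands are exact 95% binomial intervals). Right, matches of TACACTG in 25-bp bins around the 532 intergenic summits by strand: forward matches (solid) lie to the left and reverse matches (dashed) to the right.

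The pattern AGNTGGCGC, written after the core of the site of the insulator protein CTCF, was noticed among longer words and is described with no test. It was in 26 intergenic peaks (4.89%, exact 95% binomial interval 3.22 to 7.08), 0.783% of flanks, 0.466% of admitted windows, 2.13% of intronic and 2.05% of promoter peaks, and 2.51% of all optimal peaks. The replicates' own intergenic peaks had it in 4.33%, 4.47% and 4.82%. Of the 26, 16 were among the stronger 2450 optimal peaks, where 46.6% of all 532 intergenic peaks stood. The pattern lay a median of 30 bp from the summit. The strongest was the CG14762–Optix peak, followed by Sid–snu (ranks 215, 292 and 233 in replicates 1, 2 and 3), a second peak at noc–CG33648 (248, 217 and 305), whose window is printed above, and jp–brwl (158, 311 and 408). CACTG was in 12 of the 26 and GAGAG in 10, beside 53.4% and 29.5% of all 532 intergenic peaks.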

How the data were processed

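Per the labels, chromatin of whole embryos was sonicated to 200 to 800 bp and precipitated with an anti-GFP antibody. The authors deposited a peak list per replicate, a pooled list of 30000 and an optimal IDR list on dm6. Peak signal and the summit offset are the authors' deposited values; the sources used here name no signal scale, caller or aligner, and signal served for ranks only. Lists on dm3 were not used here. Start sites and genes came from Ensembl release 115. Ranks in a replicate are those of the strongest peak overlapping by at least 1 bp, and a peak with none has percentile 0. The optimal list has 5 repeated intervals, 0 of them among the intergenic peaks. Either strand of the 100 bp to each side of a summit was searched for motifs. Shares were compared by two-sided Fisher's exact test (scipy 1.17.1) with Benjamini-Hochberg adjustment and a threshold of 0.05; exact 95% intervals (Clopper-Pearson) cover counting error only. Sequences came from the RefSeq Release 6 genome. Named genes flank the 20 strongest peaks, gaps with 4 or more and the 5 farthest peaks, or are the first 4 of a list; others, such as the peaks least alike between replicates, those with a DRE or AGNTGGCGC and the remaining genes of a list, were picked once their values were known. Of 17 listed symbols that are not current, 13 were matched as older symbols through RefSeq. The set and lists were chosen with earlier results of these data known. The code was tested on made-up data.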

Additional observations from a re-analysis of the deposited data

How the results depend on the processing

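The share of intergenic peaks among optimal peaks, 10.9%, was 8.84% over 1000 bp and 6.57% over 2000 bp from a TSS, 13.8% with protein-coding genes only, 10.6% with transposable elements counted as genes, 10.1% among the stronger 2450 peaks, 11.0% in the top peaks of replicate 2 (10.96%) and of replicate 3 (11%), and 10.7% without chromosome 4, a setting chosen after seeing the data. Leaving out each replicate in turn gave 10.898% to 10.9796%. The GAGAG difference from intronic peaks reversed over 2000 bp from a TSS (+1.00 points) and among the stronger 2450 peaks (+1.32), and passed the threshold at −6.53 points with a window of 250 bp, as did that of GAGAGAG at −5.30 points. The GAGAG difference from promoter peaks reversed among the stronger peaks (+0.986) and passed at −6.10 points in replicate 2, where that from flanks fell below it (5.72 points). The cause was not tested. The DRE difference, both stronger-peak differences and the share of candidates kept held their direction and side under all 12, 12, 12 and 4 alternatives run, adjusted p at most 0.0277 where past the threshold. No paired analysis was possible because all samples form 1 group; between peak classes, the stronger-peak difference from promoter peaks within replicates 1, 2 and 3 was −6.48, −6.43 and −7.14 points. Depth is unknown, and absence from a list of 30000 does not show absence of binding.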
